A study of Mus musculus with 34 samples.

Results

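The IGF axis genes described here are the ligand gene Igf1, the clearance receptor gene Igf2r and the binding protein genes Igfbp2, Igfbp3, Igfbp4, Igfbp5, Igfbp6 and Igfbp7. These 8 genes were chosen by name from the 46071 genes of the count table. Of them, 7 were among the 13646 genes with enough counts to test, and Igfbp2 was not. The 34 libraries were made from RNA of quadriceps powdered together with gastrocnemius, from male mice on a mixed C57 and 129 background. In MIRKO (n = 4) the muscle insulin receptor was deleted by label, with IRlox littermates (n = 3) as floxed controls. In MIGF1RKO (n = 5) it was the IGF-1 receptor, with IGFRlox controls (n = 4). In MIGIRKO (n = 6) it was the pair of receptors, with IRIGFRlox controls (n = 3). In QKO (n = 7) FoxO1, FoxO3 and FoxO4 were deleted beside the pair of receptors, with Qlox controls (n = 2). Each line was kept as its own colony. Deletion in MIRKO, MIGIRKO and QKO used Cre driven by the skeletal actin (Acta1) promoter, so fibroblasts, vessels and other cells of the tissue keep the floxed genes. The Cre of MIGF1RKO and the ages of the mice are not given in the sources used here. By the series' text, lines could carry Nnt mutations, for which MIGIRKO and IRIGFRlox mice were heterozygous.

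IGF-1 is made by liver and by muscle itself, and acts through the IGF-1 receptor and, more weakly, the insulin receptor. The secreted IGF-binding proteins hold IGFs outside the cell, where they can lengthen the ligand's life, block its receptor or carry it to the matrix, and proteases that cut them set it free. IGF2R, also called the mannose-6-phosphate receptor, sorts lysosomal enzymes and takes up IGF-2 for breakdown. FoxO factors are kept out of the nucleus when the insulin and IGF-1 receptors signal.

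The data showed changes in 3 of these genes. Igfbp5, by far the most abundant of them, fell in MIRKO and in MIGIRKO muscle. Igfbp4 and Igf1 rose in MIGIRKO muscle. In QKO muscle none of the 7 tested genes differed detectably from Qlox, and the QKO changes of Igfbp5 and Igfbp4 differed from those of MIGIRKO.

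Igfbp5 and Igfbp4 carry the clearest results and moved in opposite directions in MIGIRKO, so the 250 bases before their RefSeq starts (GRCm38.p6) are shown 5′ to 3′ on the gene's own strand. The Igfbp5 window is chr1:72874866-72875115, minus strand, and the Igfbp4 window is chr11:99040994-99041243, plus strand. Capitals mark the motif TATAAA.
Igfbp5: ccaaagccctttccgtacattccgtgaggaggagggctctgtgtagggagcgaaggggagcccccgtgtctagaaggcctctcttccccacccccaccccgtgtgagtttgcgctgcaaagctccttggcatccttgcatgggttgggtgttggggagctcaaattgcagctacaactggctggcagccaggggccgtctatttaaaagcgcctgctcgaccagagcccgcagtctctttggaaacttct
Igfbp4: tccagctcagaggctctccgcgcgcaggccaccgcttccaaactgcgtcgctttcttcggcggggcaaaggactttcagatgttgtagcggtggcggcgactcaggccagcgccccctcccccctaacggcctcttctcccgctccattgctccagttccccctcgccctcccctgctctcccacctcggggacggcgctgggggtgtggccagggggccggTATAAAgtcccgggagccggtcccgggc
The Igfbp4 window holds TATAAA, with its first base 28 bases before the start, and has 69.2% G and C. The Igfbp5 window has 58.8% G and C and none of the motifs searched. Both strands were searched for the FoxO core GTAAACA, the insulin response element core CAAAACA, the TATA box TATAAA, the GC box GGGCGG and the E-box CAGCTG. Among 32851 RefSeq promoter windows of the same length, 3.17% held GTAAACA, 5.56% CAAAACA, 12.4% TATAAA, 32.7% GGGCGG and 13% CAGCTG. None of 9 windows for the 8 genes held GTAAACA or CAAAACA, 2 held TATAAA (Igfbp4 and Igfbp6), 3 held GGGCGG and 1, of Igf1, held CAGCTG. These are matches of letters in a short window only.

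Library totals ran from 1499025 to 7581198 counts. Levels are given as CPM, counts divided by the scaled library total so that libraries of different depth share one scale. Insr counts were lower in MIRKO, MIGIRKO and QKO than in their controls, and Foxo1 and Foxo4 counts were lower in QKO than in Qlox. Foxo3 counts were not, at 113 ± 15.0 CPM in QKO and 91.6 ± 16.7 CPM in Qlox (adjusted p = 0.71), so they do not show its loss. Igf1r was lower in QKO, at 8.38 ± 2.57 CPM against 17.7 ± 1.30 in Qlox (SD, log2 change -1.09 ± 0.25, SE). That change was called (adjusted p = 0.027, edgeR's quasi-likelihood test), and so was its difference from the MIGIRKO change (-1.09 ± 0.33, adjusted p = 0.042). QKO and MIGIRKO thus differed in Igf1r counts beside Foxo1 and Foxo4 counts. In the direct comparison QKO also had lower Insr counts than MIGIRKO (log2 difference -0.50 ± 0.12, adjusted p = 0.0022, edgeR). The difference between their Insr changes was not called (-0.31 ± 0.23, adjusted p = 0.46, edgeR). In MIGIRKO Igf1r averaged 18.6 ± 3.97 CPM, and 18.6 ± 1.94 in IRIGFRlox, so whole-gene counts do not show its loss there. It averaged 9.83 ± 1.41 CPM in MIGF1RKO and 16.5 ± 2.91 in IGFRlox, a change not called by the same test (adjusted p = 0.10). Groups are therefore named by their labels. By correlation over all tested genes, 13 of 34 libraries were closest to a library of another group. These were all 4 MIRKO libraries, 3 of 6 MIGIRKO, 1 of 7 QKO, 1 of 3 IRlox, 3 of 4 IGFRlox and 1 of 3 IRIGFRlox libraries. MIRKO 1 and MIRKO 3 were closest to MIGIRKO 6, and MIRKO 4 to MIGIRKO 3. MIGIRKO 1 and MIGIRKO 3 were closest to MIRKO 4, and MIGIRKO 6 to MIRKO 3. Each of these pairs held the library MIRKO 4 or MIGIRKO 6. Igf2 had 839 CPM in MIRKO 4, against 70.6 to 96.4 CPM in the other MIRKO libraries. It had 69.8 CPM in MIGIRKO 6, against 563 to 695 CPM in the other MIGIRKO libraries. Whether these labels were exchanged was not tested, and labels were used as given. The members' changes were also computed without the libraries labelled MIRKO 4 and MIGIRKO 6, and without each library in turn. The fiber markers Acta1, Ckm, Tnnt3, Mylpf, Atp2a1, Myh4, Myh1 and Myh2 were all present in every library. In bulk tissue, fewer cells of a type and less RNA per cell cannot be told apart.

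Per unit of transcript length, Igfbp5 had the highest level of the 8 genes, at 843 ± 307 TPM (counts scaled by transcript length and library total; SD over 34 libraries). Igfbp6, which prefers IGF-2 as its ligand, averaged 195 ± 65.3 TPM. Igfbp7, a relative that binds IGFs weakly, averaged 102 ± 50.2 TPM and Igfbp4, a binding protein cut by pappalysin, 89.3 ± 38.6 TPM, within their spread of each other. Igf2r averaged 73.6 ± 21.8 TPM, Igf1 25.0 ± 11.3 TPM and Igfbp3, the main carrier of IGFs in blood, 21.5 ± 10.7 TPM. Igfbp2 had 0 to 9 counts in any library, and with no filter its change was not called against floxed controls in any of the 4 genotypes. Igfbp5 was the most abundant binding protein transcript in 33 of 34 libraries. The exception was the library MIGIRKO 1, with 351 TPM of Igfbp6 and 329 TPM of Igfbp5.

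Igfbp5 (ENSMUSG00000026185, chromosome 1, 72857932 to 72874884, minus strand, GRCm38) encodes a binding protein that attaches to extracellular matrix. It lies tail to tail with Igfbp2, 5457 bases away. Its level was 907, 1122, 669 and 612 CPM in the 4 MIRKO libraries, against 1456, 2007 and 1735 CPM in the 3 IRlox libraries. Every MIRKO library lay below every IRlox library. Igfbp5 fell by 1.07 ± 0.19 on the log2 scale in MIRKO (SE, adjusted p = 0.0054, edgeR's quasi-likelihood test), which is 2.10-fold. It was the 1 called member of 7, where 1.25% of all tested genes were called. With a fit to MIRKO and IRlox alone the value was -1.04 (adjusted p = 0.10), and without the library IRlox 2 it was -0.96 (adjusted p = 0.051), so in both cases the call ended.

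In MIGIRKO, Igfbp5 ran from 533 to 764 CPM with a median of 614, against 2671, 1894.5 and 2112 CPM in IRIGFRlox. The highest MIGIRKO library had less than the lowest control. The log2 change was -1.83 ± 0.17 (adjusted p = 6.5e-09), or 3.54-fold lower, and it stayed called without any single library of the 2 groups. Within runs of nearly consecutive library numbers that held both groups, 1 library of each, the differences were -2.33, -1.70 and -1.68 on the log2 scale. In MIGF1RKO, Igfbp5 had 1479.8, 2053, 1784, 1469.7 and 1459.8 CPM, against 2085, 2147, 1714 and 1619 CPM in IGFRlox. These ranges overlapped, and the change of -0.20 ± 0.17 was not called (adjusted p = 0.78, 95% interval -0.54 to 0.14).

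In QKO, Igfbp5 ran from 2131 to 3043 CPM with a median of 2355, against 1767 and 2422 CPM in Qlox. The ranges overlapped, and the change of 0.22 ± 0.20 was not called (adjusted p = 0.71, 95% interval -0.19 to 0.63). The QKO change exceeded the MIGIRKO change by 2.04 ± 0.28 on the log2 scale (adjusted p = 5.0e-05). Compared directly, QKO libraries had 3.88-fold more Igfbp5 than MIGIRKO libraries (log2 difference 1.96 ± 0.15, adjusted p = 2.2e-11), with no overlap. This difference was between 1.49 and 2.24 within each of the 6 runs of library numbers. The 2 groups come from separate colonies and also differed in Igf1r and Insr counts, as given above.

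**Figure D1:**
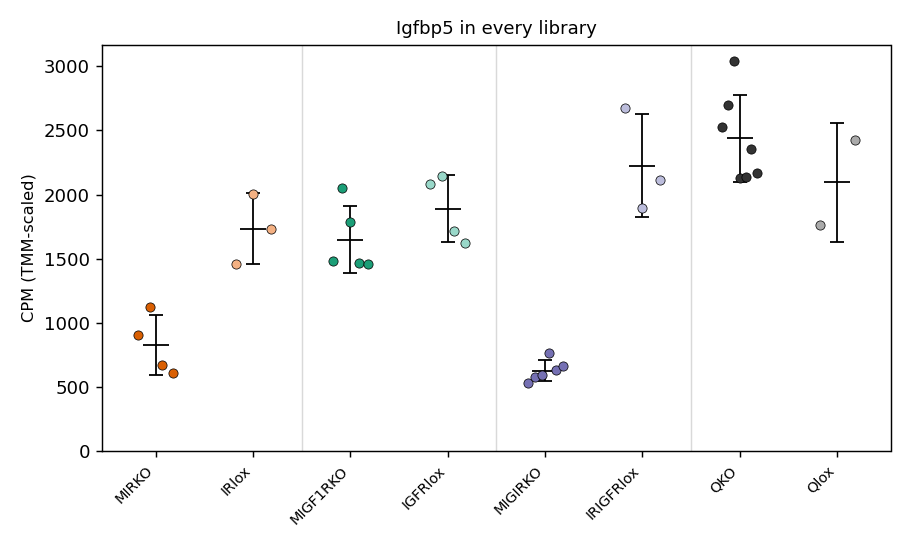
Igfbp5 level in CPM (y axis, from 0) in every library of the 8 groups (x axis), each knockout group left of its floxed controls. Points are libraries and bars show mean and SD; all 6 MIGIRKO libraries lie at or below 764 CPM and all 7 QKO libraries at or above 2131 CPM.

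Differences between the other genotypes were also tested for Igfbp5. The MIGIRKO change was lower than the MIGF1RKO change by 1.63 ± 0.24 on the log2 scale (difference -1.63, adjusted p = 2.1e-04). Against the MIRKO change the MIGIRKO change differed by -0.76 ± 0.26, which was not called (adjusted p = 0.30, 95% interval -1.28 to -0.23). Without the libraries labelled MIRKO 4 and MIGIRKO 6 that value was -0.89 (adjusted p = 0.049). The MIRKO and MIGF1RKO changes, which belong to the insulin receptor and the IGF-1 receptor, differed by -0.87 ± 0.25 and this was not called (adjusted p = 0.36). A difference between the single receptors in their effect on Igfbp5 was therefore not established.

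Igfbp4 (ENSMUSG00000017493, chromosome 11, 99041244 to 99054392, plus strand) ran from 127 to 209 CPM with a median of 165 in MIGIRKO, against 93.4, 105 and 72.9 CPM in IRIGFRlox. No MIGIRKO library was as low as a control. Igfbp4 rose by 0.88 ± 0.16 on the log2 scale in MIGIRKO (adjusted p = 8.2e-05), or 1.84-fold. In MIRKO its values were 152, 119.6, 121 and 136 CPM, against 118, 110.1 and 106 CPM in IRlox. These ranges did not overlap, as for 16.1% of all tested genes in that comparison, but the change of 0.25 ± 0.16 was not called (adjusted p = 0.45). In MIGF1RKO the change was -0.039 ± 0.15 (adjusted p = 0.97), and the MIGIRKO change exceeded it by 0.92 ± 0.21 (adjusted p = 0.0084).

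In QKO, Igfbp4 ran from 80.6 to 114 CPM with a median of 102, against 97.8 and 115 CPM in Qlox. The ranges overlapped, and the change was -0.072 ± 0.17 (adjusted p = 0.91). The QKO change lay below the MIGIRKO change, with a difference of -0.95 ± 0.23 (adjusted p = 0.013). That call ended without the library Qlox 2 (-0.83, adjusted p = 0.14). Compared directly, QKO had less Igfbp4 than MIGIRKO (log2 difference -0.72 ± 0.12, adjusted p = 2.6e-05), with no overlap between libraries and a negative difference in all 6 runs of library numbers.

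Igf1 (ENSMUSG00000020053, chromosome 10, 87858265 to 87937042, plus strand) ran from 63.9 to 128 CPM with a median of 97.0 in MIGIRKO, against 51.7, 64.7 and 55.2 CPM in IRIGFRlox. The lowest MIGIRKO library lay just below the highest control. Igf1 rose by 0.72 ± 0.22 on the log2 scale in MIGIRKO (adjusted p = 0.011), or 1.64-fold. Without the library IRIGFRlox 1 the change was 0.65 and no longer called (adjusted p = 0.064). Within the 3 runs of library numbers with both groups it was 0.49, -0.018 and 0.71.

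The other genotypes gave no called change of Igf1 against their controls. Igf1 had 92.1, 98.3, 75.2 and 101 CPM in MIRKO, against 72.4, 122 and 83.7 CPM in IRlox (change -0.016 ± 0.23, adjusted p = 0.99). The change was 0.38 ± 0.20 in MIGF1RKO (adjusted p = 0.55) and 0.36 ± 0.25 in QKO (adjusted p = 0.61). QKO had less Igf1 than MIGIRKO (log2 difference -0.81 ± 0.17, adjusted p = 4.2e-04), although the difference between their changes was not called (-0.36 ± 0.33, adjusted p = 0.57). The floxed colonies themselves ranged from 41.9 ± 6.30 CPM in Qlox (n = 2) to 92.7 ± 26.0 CPM in IRlox (SD, n = 3), and the test over the 4 floxed groups was not called for Igf1 (adjusted p = 0.17, edgeR) and called none of the 7 members, with 0.264% of all genes called and 1 member at an unadjusted p under 0.05. A DESeq2 test and a fit with library runs as a block each called 1, Igf1.

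Counted together, 3 of the 7 tested members were called in MIGIRKO, where 33.7% of all genes were, so that share is close to the background. Of the 3, 2 were higher (17.0% of all genes) and 1 was lower (16.7%), and 2 members had ranges that did not overlap (29.9%). The call in MIRKO was 1 lower member, against 0.865% of all genes, and 3 members had ranges that did not overlap, Igfbp5, Igfbp4 and Igf2r, against 16.1% of all genes. Igf2r had 201, 197.4, 212 and 259.9 CPM in MIRKO, against 192, 188 and 196.9 CPM in IRlox (change 0.18 ± 0.15, adjusted p = 0.55). No member was called in MIGF1RKO by edgeR, where 0.616% of all genes were (0.264% higher and 0.352% lower), nor in QKO against Qlox, where 0.506% were. At an unadjusted p under 0.05 the count was 0 in both, and DESeq2 also called 0. All 7 members overlapped between groups in both, where 5.14% of all genes in MIGF1RKO and 9.77% in QKO did not.

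The contrast of the QKO change with the MIGIRKO change was called for 2 members (5.76% of all genes), Igfbp5 on the higher side (3.61%) and Igfbp4 on the lower (2.15%). That between MIGIRKO and MIGF1RKO was also called for 2 (8.58%), Igfbp4 higher (3.67%) and Igfbp5 lower (4.91%). QKO against MIGIRKO called 3 members (30.2%), Igfbp5 higher (16.2%) and Igfbp4 and Igf1 lower (14.0%), of which Igfbp5 and Igfbp4 did not overlap (7.41%). Between MIGIRKO and MIRKO changes edgeR called 0 members (0.00% of all genes, 3 members at an unadjusted p under 0.05) and DESeq2 0, and between MIRKO and MIGF1RKO changes edgeR called 0 (0.0220%, 1 member) and DESeq2 0.

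**Figure D2:**
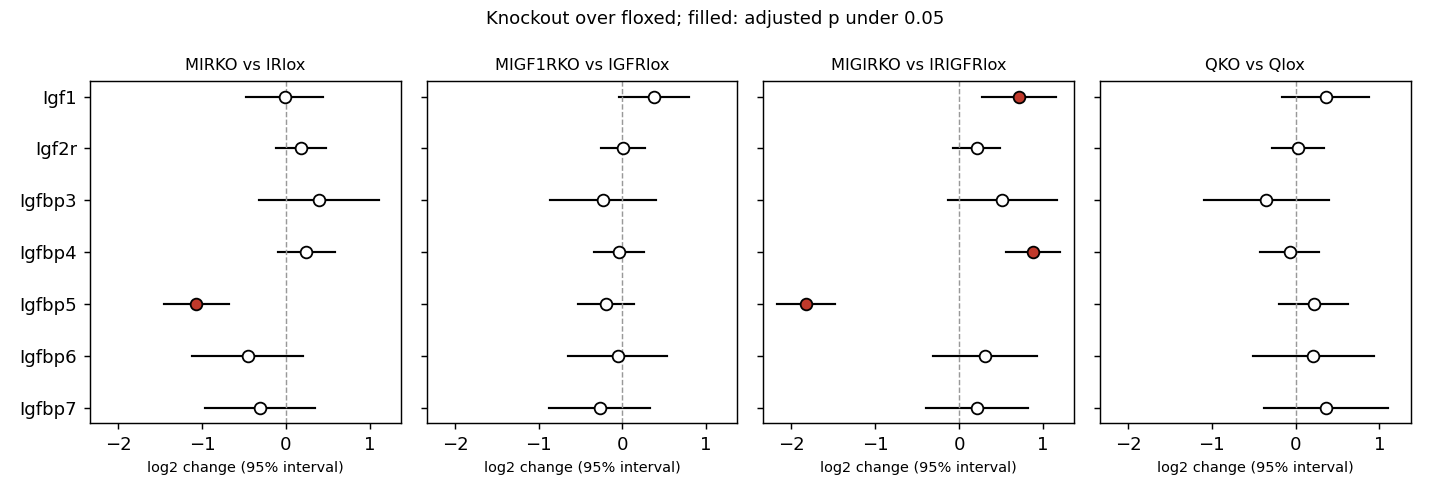
Log2 change of each tested gene (rows) in the knockout over its floxed controls, with 95% intervals, in 4 panels by genotype. Filled points are called at an adjusted p under 0.05: Igfbp5 in MIRKO, and Igf1, Igfbp4 and Igfbp5 in MIGIRKO.

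Igf2r, Igfbp3, Igfbp6 and Igfbp7 were called against floxed controls in none of the 4 genotypes, although other settings, given at the end, called some of them. Igf2r (chromosome 17) was the steadiest, from 151 to 277 CPM over all libraries, with a coefficient of variation of 14.1%. It averaged 236 ± 22.5 CPM in MIGIRKO and 204 ± 7.09 CPM in IRIGFRlox (change 0.21 ± 0.14, adjusted p = 0.24). Igfbp3 (chromosome 11) averaged 27.1 ± 16.0 CPM in MIGIRKO and 18.8 ± 5.17 CPM in IRIGFRlox (change 0.52 ± 0.32, adjusted p = 0.21). Igfbp6 (chromosome 15) averaged 76.1 ± 19.5 CPM in MIGIRKO and 61.6 ± 28.7 CPM in IRIGFRlox (adjusted p = 0.46). Igfbp7 (chromosome 5) averaged 50.5 ± 20.7 CPM in MIGIRKO and 43.4 ± 11.0 CPM in IRIGFRlox (adjusted p = 0.61). The intervals of the last 3 reach past 0.8 in log2, so changes of that size could go undetected. Igfbp7 shares 85 exonic bases with Polr2b on the opposite strand.

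**Figure D3:**
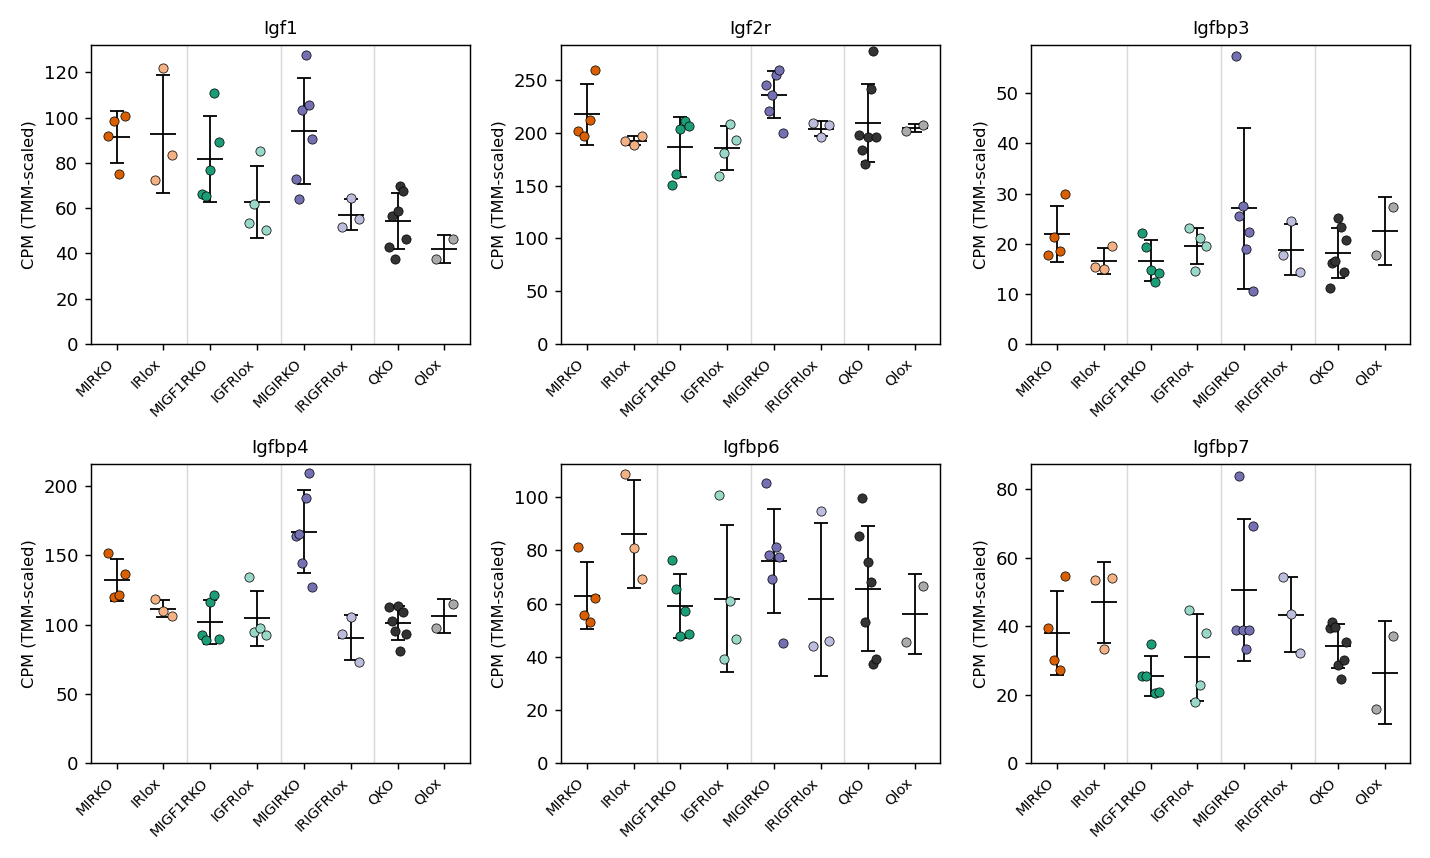
Levels in CPM (y axes, from 0) of Igf1, Igf2r, Igfbp3, Igfbp4, Igfbp6 and Igfbp7 in every library, with mean and SD, each knockout group left of its floxed controls. Igfbp4 in MIGIRKO lies above IRIGFRlox without overlap, and the library MIGIRKO 1 stands high for Igfbp3 at 57.4 CPM.

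The make-up of the binding protein transcripts differed between groups. Igfbp5 made 40.2% ± 5.61 of the summed TPM of the 6 binding protein genes in MIGIRKO and 75.7% ± 7.21 in IRIGFRlox (SD). The share was 51.9% ± 8.77 in MIRKO and 66.0% ± 7.02 in IRlox, 72.6% ± 3.35 in MIGF1RKO and 74.1% ± 6.14 in IGFRlox, and 77.7% ± 3.5 in QKO and 77.2% ± 1.38 in Qlox. Igfbp4 made 14.4% ± 2.14 in MIGIRKO and 4.21% ± 0.760 in IRIGFRlox, and Igfbp6 26.0% ± 5.73 in MIGIRKO and 11.6% ± 5.85 in IRIGFRlox. The summed TPM was 1070.4 ± 116 in MIGIRKO and 1356 ± 180 in IRIGFRlox. These are descriptions with no test, and TPM takes no account of the scaling factor, which averaged 1.23 in MIGIRKO and 0.876 in IRIGFRlox.

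**Figure D4:**
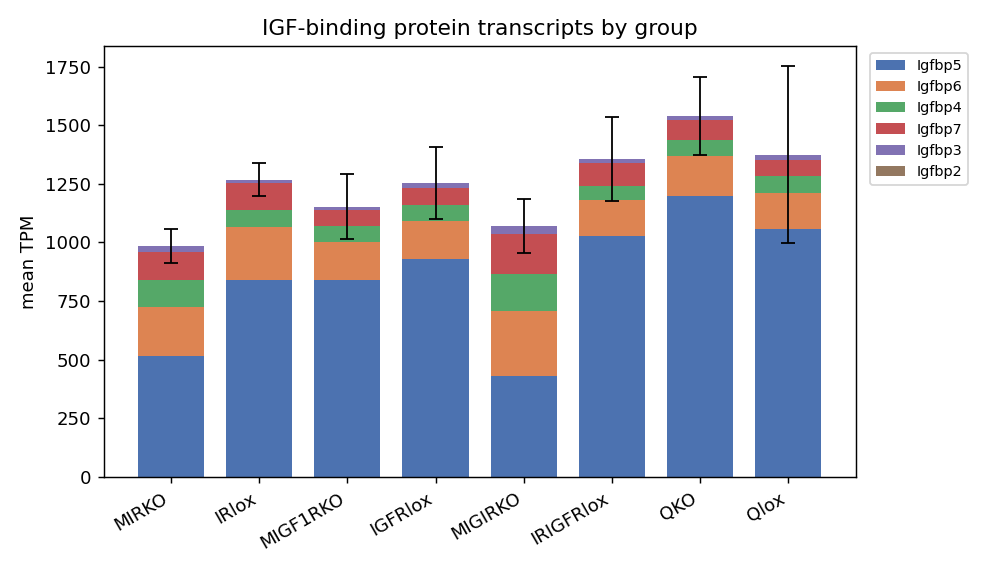
Mean TPM of the 6 IGF-binding protein genes, stacked from 0, in the 8 groups (x axis), each knockout left of its floxed controls. Error bars are the SD of the summed level over libraries; the Igfbp5 portion makes 40.2% of the MIGIRKO bar and 75.7% of the IRIGFRlox bar.

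Markers of other cells and states moved with these results in MIGIRKO. Fibroblast markers rose for 6 of 10 genes, with a summed level of 7932 to 10932 CPM in MIGIRKO against 3773 to 7719 CPM in IRIGFRlox, none of them at 0 in any library. All 8 adipocyte and all 9 macrophage markers rose, 4 of 8 fiber markers fell, and 14 of 17 markers of denervated muscle rose and 1 fell. Of the other lists, 6 of 8 Schwann cell, 3 of 9 mural cell, 2 of 6 tendon and 1 of 5 satellite cell markers rose, 2 mural cell markers fell, and none of 10 endothelial markers was called. Over all tested genes, 17.0% were higher and 16.7% lower in this comparison. The summed fiber markers ran from 67217 to 108283 CPM in MIGIRKO and from 176094 to 194680 CPM in IRIGFRlox. In MIRKO, 5 of 17 denervation markers rose and no fiber or fibroblast marker was called, where 0.381% of all tested genes were higher and 0.865% lower. The summed fiber markers ran from 86851 to 137951 CPM in MIRKO and from 157960 to 176192 CPM in IRlox. Few genes were called in MIRKO, so the lack of calls does not show that fiber markers were unchanged. The part of these cells and states in the changes of Igfbp5, Igfbp4 and Igf1 was not tested.

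Across the 34 libraries, which differ in depth and genotype, Igfbp4 followed the mean of the fibroblast markers with r = 0.85, and with r = 0.69 after group means were removed. It also followed the adipocyte (0.82), denervation (0.71), macrophage (0.65), tendon (0.62) and Schwann cell (0.58) markers. With group means removed those values were 0.50, 0.27, 0.32, 0.40 and 0.27. Igfbp4 ran against the fiber markers with r = -0.58, or 0.042 with group means removed. Igfbp5 ran against the adipocyte markers with r = -0.81 and the denervation markers with r = -0.78, and with the fiber markers with r = 0.73. After group means were removed these were -0.16, -0.41 and 0.12. Igfbp5 also ran against the fibroblast (-0.70), macrophage (-0.61), Schwann cell (-0.54) and tendon (-0.52) markers. With group means removed those values were 0.091, -0.16, -0.17 and 0.022.

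**Figure D5:**
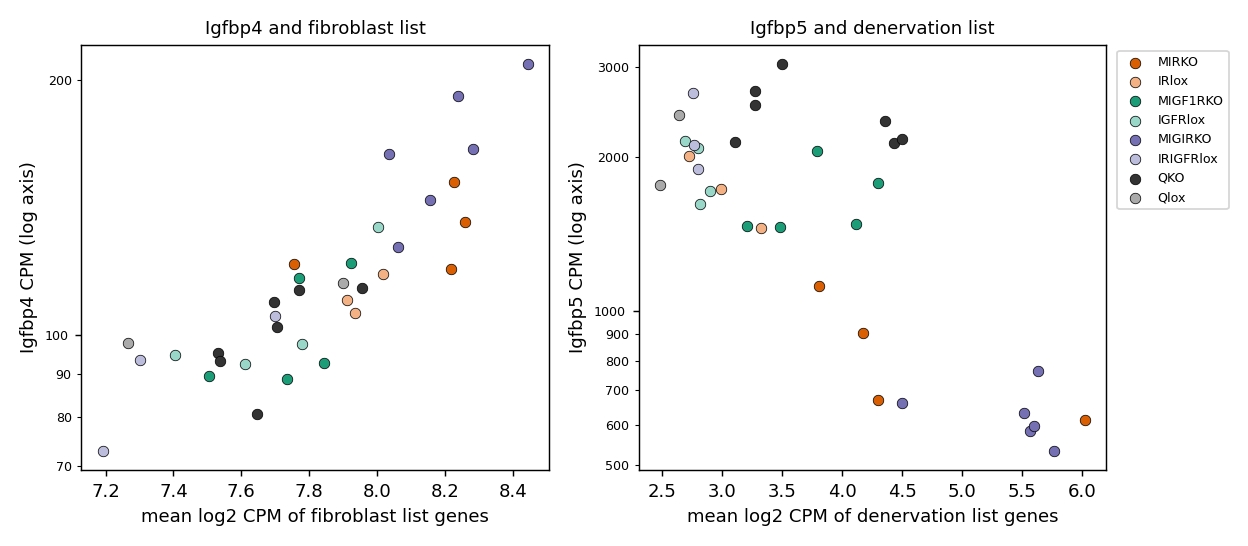
Igfbp4 against the mean log2 CPM of fibroblast markers (left) and Igfbp5 against that of denervation markers (right), with 1 point per library, colored by group; both y axes are CPM on a log scale. Igfbp4 rises with the fibroblast markers (r = 0.85), and QKO libraries keep Igfbp5 at or above 2131 CPM.

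The genes whose profile over the 34 libraries was most like that of each member were named by Pearson's r of log2 CPM. For Igfbp5 they were Cdh4, a cadherin, Fam19a3 and Grb14, an adaptor that binds the insulin receptor, each with r = 0.92, and r of 0.50, 0.57 and 0.44 after group means were removed. For Igfbp4 they were the complement genes C3 (0.92) and C1s1 (0.88) and the receptor kinase gene Erbb2 (0.87). For Igf1 they were Mup10 (0.82), Hcar1, a lactate receptor (0.81), and Arhgap29 (0.79). For Igfbp6 they were Cilp2 (0.85), Fmod, a collagen-binding proteoglycan (0.83), and Serpinf1 (0.82). Igf2r was closest to Wdr3, Dip2b and Tacc1 (each 0.79), Igfbp3 to Sult1a1 (0.76), St6galnac2 (0.74) and Fmo1 (0.72), and Igfbp7 to Taldo1 (0.84), Eef1b2 (0.84) and Rps10 (0.82). With group means removed, r in the same order was 0.81, 0.65 and 0.65 for Igfbp4 and 0.55, 0.62 and 0.44 for Igf1. It was 0.84, 0.82 and 0.83 for Igfbp6 and 0.72, 0.71 and 0.75 for Igf2r. For Igfbp3 it was 0.78, 0.70 and 0.68, and for Igfbp7 0.83, 0.85 and 0.82. Igfbp4 and Igfbp5 ran against each other with r = -0.75, and with r = 0.088 after group means were removed.

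Other genes of the axis were counted from lists. Among 10 tested genes of growth hormone signalling, which drives Igf1 transcription, 3 rose and 3 fell in MIGIRKO. In that comparison 17.0% of all tested genes were higher and 16.7% lower. Ghr, the growth hormone receptor, averaged 69.8 ± 11.6 CPM in MIGIRKO and 163 ± 29.7 CPM in IRIGFRlox (change -1.22 ± 0.17, adjusted p = 2.8e-06). Stat5b, which carries the signal to the Igf1 gene, and the kinase gene Jak2 also fell (-0.76 and -0.62), while Socs3, a feedback inhibitor, rose (2.47 ± 0.65, adjusted p = 0.0043). Stat5a, the close relative of Stat5b, rose (0.76 ± 0.23, adjusted p = 0.012), so the genes of this list moved in both directions. No gene of this list was called in MIRKO, MIGF1RKO or QKO against floxed controls, where 1.25%, 0.616% and 0.506% of all tested genes were.

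Of 12 tested genes for proteases that cut binding proteins and for their inhibitors, 8 rose and none fell in MIGIRKO. The list median was 1.05, against 0.035 over all tested genes, of which 17.0% were higher and 16.7% lower. Mmp2 averaged 169 ± 35.8 CPM in MIGIRKO and 84.6 ± 8.20 CPM in IRIGFRlox (change 1.00 ± 0.18, adjusted p = 1.0e-04). Timp1, an inhibitor of such proteases, rose by 3.93 ± 0.81, Mmp14 by 0.94 ± 0.25 and Mmp3 by 3.03 ± 0.90. Timp1 and Mmp3 were low in IRIGFRlox and spread widely in MIGIRKO. Timp1 had 20.0 ± 20.6 CPM in MIGIRKO and 1.31 ± 0.346 CPM in IRIGFRlox. Mmp3 had 3.56 ± 2.84 and 0.389 ± 0.324 CPM. Pappa, which encodes pappalysin, had 5.32 ± 2.42 CPM in MIGIRKO and 2.42 ± 0.779 CPM in IRIGFRlox (adjusted p = 0.049, edgeR). It is named because that protease cuts Igfbp4. Stc2, for an inhibitor of pappalysin, rose as well (1.09 ± 0.40, adjusted p = 0.035, edgeR). It had 9.05 ± 2.43 CPM in MIGIRKO and 4.19 ± 2.09 CPM in IRIGFRlox. None of these 12 was called in MIRKO, MIGF1RKO or QKO, where 1.25%, 0.616% and 0.506% of all tested genes were.

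Of the other ligand and receptor genes, Igf2 rose in MIGIRKO, with 542 ± 236 CPM in MIGIRKO and 23.7 ± 3.66 CPM in IRIGFRlox (change 4.51 ± 0.81, adjusted p = 1.3e-04). The libraries MIGIRKO 1 to MIGIRKO 5 had 641, 628, 657, 695 and 563 CPM. MIGIRKO 6 stood far below them, at 69.8 CPM. In MIRKO, Igf2 had 70.6, 94.97, 96.4 and 839 CPM, against 26.6 ± 4.07 CPM in IRlox, so the library MIRKO 4 stood far above the other 3. The MIRKO change of 3.37 ± 0.79 was called (adjusted p = 0.034), but without MIRKO 4 it was 1.71 and not called (adjusted p = 0.24), and the call also ended without any 1 of the IRlox libraries (adjusted p = 0.11 to 0.14). Among 8 tested relatives with an IGF-binding protein domain, Ccn2, Igfn1 and Ccn4 rose in MIGIRKO and Crim1 fell there (-0.97 ± 0.17) and in QKO (-0.83 ± 0.20, adjusted p = 0.043). Of 9 genes for binding partners of these proteins, Fn1, Fhl2 and Lrp1 rose in MIGIRKO and Xrcc5 and Ptprb fell. For these 8 relatives and 9 partners, the shares of all tested genes were 17.0% higher and 16.7% lower in MIGIRKO, and 0.454% lower in QKO. Of 12 genes of mannose-6-phosphate sorting, the route IGF2R serves, the lysosomal protease gene Ctsl (1.42 ± 0.28) and Man2b1 (0.78 ± 0.27) rose in MIGIRKO, a share close to the 17.0% of all tested genes that were higher there. Igf2bp2, which binds Igf2 mRNA, also rose there (1.86 ± 0.49, adjusted p = 0.0041).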

How the data were processed

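RNA from 34 muscle libraries was analysed as raw counts per Ensembl gene, deposited by the authors without normalization. Per the labels' protocols, libraries were made with a directional kit. Per the submitters' processing notes, reads were aligned with STAR to GRCm38.p4 and counted with featureCounts; versions and strand setting are not given in the sources used here, so reads of overlapping opposite-strand genes may not be separated. Of the gene IDs, 45143 matched GENCODE M21 (GRCm38), whose merged exon lengths gave TPM. Library totals of 1499025 to 7581198 set the counting precision.

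Groups came from the labels. Genes were kept with edgeR's filterByExpr, and a model with 8 group means was fitted to all 34 libraries by edgeR 4.0.16's quasi-likelihood method (R 4.3.3, limma 3.58.1, data.table, version 1.17.8) with TMM scaling and robust shrinkage. CPM uses the scaled totals. Genes were called at a Benjamini-Hochberg adjusted p under 0.05 over all 13646 tested genes. The procedure was tested on simulated counts without colony, run or labelling effects, so that test cannot speak to such effects. Alternatives were DESeq2 1.42.0, DESeq2 size factors, limma-voom, library totals alone, other filters, a block for each run of consecutive library numbers, fits to compared groups only, all 12 floxed libraries as controls, and libraries left out. Leaving out QKO 5 and QKO 6, the contrast of MIRKO and MIGF1RKO changes, and the alternatives for Igf2, were added after seeing the data. The members, lists and tests were chosen with earlier results of these data known. Named genes are all members and up to 4 called genes per list. The 3 most alike genes of each member, with an average log2 CPM of at least 1, are also named. Pappa, Stc2, Lrp1 and Stat5a were named after their values were seen. The sources do not say that every library is from a separate mouse, so p-values measure the spread between libraries. Figures used Python 3.11.15, pandas 2.3.3, numpy 2.4.6 and matplotlib 3.10.9.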

Additional observations from a re-analysis of the deposited data

Results flagged for a closer look

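Within groups of 4 to 10 libraries, 2 values stood far from the rest of their group, of 35 groups of values examined, where chance sets about 1 in 20 apart. Igfbp3 was 57.4 CPM in the library MIGIRKO 1, against 10.5 to 27.6 CPM in the other MIGIRKO libraries. Igfbp4 was 134 CPM in the library IGFRlox 1, against 92.5 to 97.5 CPM in the other IGFRlox libraries.

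For 2 genes the change differed between genotypes by a test of the difference itself (edgeR). The QKO change minus the MIGIRKO change was 2.04 for Igfbp5 and -0.95 for Igfbp4 on the log2 scale. The MIGIRKO change minus the MIGF1RKO change was -1.63 for Igfbp5 and 0.92 for Igfbp4.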

How the results depend on the processing

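No paired analysis was possible because no label ties a knockout mouse to a littermate, and replicate numbers only count libraries. In MIGIRKO, Igfbp5 and Igfbp4 kept direction and call under all alternatives run, from -1.93 to -1.32 and from 0.70 to 1.38. Called members in MIRKO numbered 0 when only the compared groups were fitted, 2 with all 12 floxed libraries (Igfbp4 at 0.36, adjusted p = 0.033) and 0 to 1 with a library left out. Scaling by library totals only put the all-gene median at 0.53 in MIGIRKO against IRIGFRlox and at -0.41 in QKO against MIGIRKO, and the counts of called members were 6 and 7; Igfbp3 (0.99), Igfbp6 (0.80) and Igf2r (0.71) were then called in MIGIRKO. For MIGIRKO the count was 2 to 3 with a library left out. For the QKO minus MIGIRKO change it was 1 to 2. With all 12 floxed libraries the MIGIRKO count was 4, with Igf2r added (0.28, adjusted p = 0.014, edgeR). The count in QKO against MIGIRKO was 4 under 3 settings (edgeR), and 3 to 4 with a single library left out. Library runs as a block added Igfbp7 (-0.56, adjusted p = 0.022). Leaving out MIRKO 4 and MIGIRKO 6 added Igfbp3 (-0.77, adjusted p = 0.0084). Leaving out QKO 5 and QKO 6 added Igf2r (-0.32, adjusted p = 0.014). The Igf2 call in MIRKO also ended with limma-voom (2.51), no filter (3.34), library runs as a block (2.83) and a fit to the compared groups (3.42). For MIGIRKO minus MIRKO the count was 1 without the libraries labelled MIRKO 4 and MIGIRKO 6, and for the floxed groups 1 with the DESeq2 test and 1 with library runs as a block. The causes were not tested.

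Directions turned only for changes that were not called. With library totals only, these were Igf1 in MIRKO (0.25), Igfbp4 (0.052) and Igfbp6 (0.024) in MIGF1RKO, and Igfbp7 in QKO minus MIGIRKO (-0.30). With limma-voom they were Igf1 in MIRKO (0.010) and Igfbp6 in MIGF1RKO (0.027), when only the compared groups were fitted Igf1 in MIRKO (0.012), and with no filter Igf2r in MIGF1RKO (-0.0025). With all 12 floxed libraries they were Igfbp7 (0.023) and Igf1 (0.49) in MIRKO, Igf2r in MIGF1RKO (-0.064), and Igfbp7 (-0.11), Igf1 (-0.28) and Igfbp6 (-0.033) in QKO. With library runs as a block they were Igfbp7 (-0.073) and Igfbp6 (-0.0077) in QKO, and Igfbp7 (-0.49), Igf1 (0.061) and Igf2r (0.029) in QKO minus MIGIRKO. Without QKO 5 and QKO 6 they were Igf2r in QKO (-0.11) and Igfbp6 in QKO minus MIGIRKO (0.013). With a library left out, Igf1 in MIRKO ran from -0.17 to 0.22. In MIGF1RKO, Igfbp4 ran from -0.11 to 0.10, Igfbp6 from -0.23 to 0.27 and Igf2r from -0.058 to 0.075. In QKO, Igfbp7 ran from -0.11 to 1.13, Igfbp3 from -0.62 to 0.0068, Igfbp4 from -0.18 to 0.051, Igfbp6 from -0.035 to 0.51 and Igf2r from -0.052 to 0.093. In QKO minus MIGIRKO, Igfbp7 ran from -0.32 to 0.92 and Igfbp6 from -0.55 to 0.21.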
